A study of Mus musculus with 8 samples.

Results

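The transcripts of the cyclins that act in the G1, S and M phases of the cell cycle were examined in mouse lungs, CCSP-p52 or WT, with and without lipopolysaccharide (LPS). The 8 genes Ccnd1, Ccnd2, Ccnd3, Ccne1, Ccna2, Ccnb1, Ccnb2 and Ccnf were chosen by name, and each was read from the probe set that the platform's table assigns to that symbol alone, taking the one with the highest mean over the arrays where there were several. Of these 8 genes, 7 had such a probe set among the 18820 genes measured in this way, and Ccnb1 was not analysed here. Ccne2 shares its probe set with Ints8 and was not analysed here either.

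The study profiled whole lung RNA on 8 Affymetrix arrays in 4 groups of 2, and each array held the pooled RNA of 3 FVB mice, 8 to 12 weeks old with the sexes mixed. The groups were CCSP-p52 mice 48 hours after intratracheal LPS, WT mice 48 hours after LPS, CCSP-p52 mice without LPS and WT mice without LPS. All mice, WT included, drank doxycycline (dox) at 2 g/L with 2% sucrose for 1 week. CCSP-p52 mice carry CCSP-rtTA and CCSP-tTS/(tet-O)7-FLAG-p52 transgenes, by which dox turns on a FLAG-tagged p52, the processed product of Nfkb2, under the promoter of the club cell secretory protein (CCSP), and WT mice were littermates negative by genotype. The transgene is thus restricted to airway epithelial cells whereas the arrays read all cells of the lung, and in such bulk RNA fewer cells of a type and less RNA per cell cannot be told apart. By the study's methods the arrays with and without LPS were handled in a single round. Nothing says whether the pools of a group shared a litter, so p-values measure the spread between these pools.

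The values are log2 expression, on which a difference (logFC) of 1 is a doubling. Nfkb2 had values of 11.28 and 10.53 in CCSP-p52 LPS pools, against 10.83 and 10.56 in WT LPS pools, and of 10.20 and 10.33 in CCSP-p52 pools without LPS, against 9.51 and 9.58 in WT pools without LPS. The transgenic pools were therefore separated from WT in Nfkb2 without LPS but not with it. The club cell gene Scgb1a1 and the alveolar type II gene Sftpc were at or above percentile 99.4 of all probe sets on every array. On WT LPS pool 2 a list of 10 striated muscle and squamous genes averaged 2.67 above its own mean, against -0.70 to -0.03 on the other 7 arrays.

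Cyclins are the regulatory subunits of the cyclin-dependent kinases (Cdks), and their transcripts and proteins come and go with the phases of the cell cycle. D-type cyclins bind Cdk4 and Cdk6 in G1 in response to growth signals, cyclin E1 binds Cdk2 at entry into S phase, cyclin A2 acts through S phase and G2, and the B-type cyclins drive Cdk1 into mitosis. Cyclin F has a cyclin fold but binds no Cdk as its activator and serves as the substrate receptor of an SCF ubiquitin ligase in S phase and G2. Most cells of an adult lung are out of the cycle at any time.

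Promoters of 3 of these genes are shown, of Ccnb2 and Ccnf because they hold both motifs searched for late cell cycle genes, and of Ccne1 because it acts earlier and was higher after LPS as well. Late cell cycle promoters are known for CCAAT boxes, bound by NF-Y, and for the cell cycle genes homology region (CHR), bound by the DREAM and MuvB-FOXM1 complexes. The RefSeq table (GRCm38.p6) held a promoter for 5 of the 8 cyclins, and the 250 bases before the annotated start are given 5′ to 3′ on the gene's strand, chr9:70421555-70421804 (minus strand) for Ccnb2, chr17:24251410-24251659 (minus strand) for Ccnf and chr7:38107491-38107740 (minus strand) for Ccne1. Capitals mark CCAAT and TTTGAA, the letters searched for the CCAAT box and the CHR on both strands.
Ccnb2: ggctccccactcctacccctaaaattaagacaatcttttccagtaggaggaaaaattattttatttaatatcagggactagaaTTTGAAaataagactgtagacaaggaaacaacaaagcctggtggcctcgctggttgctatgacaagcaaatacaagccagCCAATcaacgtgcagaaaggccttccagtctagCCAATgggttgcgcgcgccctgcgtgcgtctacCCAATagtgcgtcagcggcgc
Ccnf: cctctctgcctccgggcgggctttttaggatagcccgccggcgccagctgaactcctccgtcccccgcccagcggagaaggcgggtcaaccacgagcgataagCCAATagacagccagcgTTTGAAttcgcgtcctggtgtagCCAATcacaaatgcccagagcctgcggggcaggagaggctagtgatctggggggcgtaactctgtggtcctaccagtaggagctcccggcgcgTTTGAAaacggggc
Ccne1: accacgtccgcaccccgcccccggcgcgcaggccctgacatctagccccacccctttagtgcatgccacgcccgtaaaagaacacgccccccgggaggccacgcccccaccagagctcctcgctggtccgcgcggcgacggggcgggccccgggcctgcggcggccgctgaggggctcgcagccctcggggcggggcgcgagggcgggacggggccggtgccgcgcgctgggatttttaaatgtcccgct

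In Ccnb2 the 3 CCAAT boxes begin at -87, -54 and -21 from the start, 33 bases apart, and the single TTTGAA lies farther out at -167. Ccnf holds 2 CCAAT boxes, at -147 and -107, and 2 TTTGAA matches, at -130 and -14. Ccne1 has neither motif. GC boxes (GGGCGG, either strand) number 4 in Ccne1, 2 in Ccnf, 3 in Ccnb1, 2 and 1 at the 2 starts of Ccnd3 and 0 in Ccnb2. Among all 32851 promoters in the table, 33.8% hold a CCAAT box, 2.79% hold at least 3, 16.0% hold TTTGAA, 1.53% hold TTTGAA with at least 2 CCAAT boxes, as Ccnb2 and Ccnf do, and 32.7% hold a GC box. Ccnb1 had 2 CCAAT boxes and no TTTGAA, and Ccnd3 had 1 CCAAT box at one of its starts and none at the other. No member's window contained TTCGAA, a variant of the CHR that 1.3% of promoters hold. The E2F letters TTTCCCGC (0.9% of promoters), then TTTGGCGC (0.4%) and TTTGCCGC (0.3%), and the NF-kB consensus site (7.3%) were also without a match. These are matches of letters in a fixed window and no binding was measured.

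LPS was accompanied by higher transcripts of the cyclins of S phase, G2 and mitosis, while each D-type cyclin ranged over at most 0.64 log2 units. In the additive model of p52 and LPS on the 8 arrays, 4 of 7 cyclins, Ccna2, Ccnb2, Ccne1 and Ccnf, passed the cut-off upward, and none passed it downward. The cut-off is a logFC of at least 0.41, the size the study used to select genes, together with an unadjusted p of at most 0.05, a bound chosen here. Over all 21218 probe sets with 1 symbol, 9.74% were higher and 13.7% lower by this measure. At an adjusted p under 0.05 (limma, Benjamini-Hochberg over these probe sets) the same 4 were higher, where 13.5% of probe sets were, and 1, Ccnd2, was lower, where 20.2% were. The median logFC of the 7 cyclins was 0.92, against 0.007 for all probe sets. In 5 of 7 every LPS array lay above every array without LPS, as 15.3% of probe sets did, and Ccnd2 lay below on every LPS array, as 21.2% did.

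Differences with p52 were smaller, and the cyclins that reached the cut-off did so in lungs without LPS. In those lungs 2 of 7 cyclins, Ccna2 and Ccnb2, were higher in CCSP-p52 mice at the cut-off, where 0.556% of probe sets were, and none was lower, where 0.16% were. None passed adjustment in limma, where 0% of probe sets were higher, and 2 cyclins and 1.7% of probe sets had an unadjusted p under 0.05. The logFC was positive for all 7, with a median of 0.18, against -0.004 for all probe sets, and 5 of 7 had both CCSP-p52 pools above both WT pools, as 16.1% of probe sets did, and none had them below, as 15.9% did. With LPS 0 of 7 were at the cut-off in either direction, where 1.09% of probe sets were higher and 1.09% lower, and 0 had an unadjusted p under 0.05, as 6.98% of probe sets did. The median logFC was -0.15 with LPS, and 1 of 7, Ccnd3, had both CCSP-p52 pools below both WT pools, as 15.8% of probe sets did, and 0 of 7 had them above, as another 15.8% did. In the additive model over all 8 arrays no cyclin reached the cut-off for p52, where 0.245% of probe sets were higher and 0.0424% lower. In that model 0 had an unadjusted p under 0.05, as 2.27% of probe sets did.

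**Figure D1:**
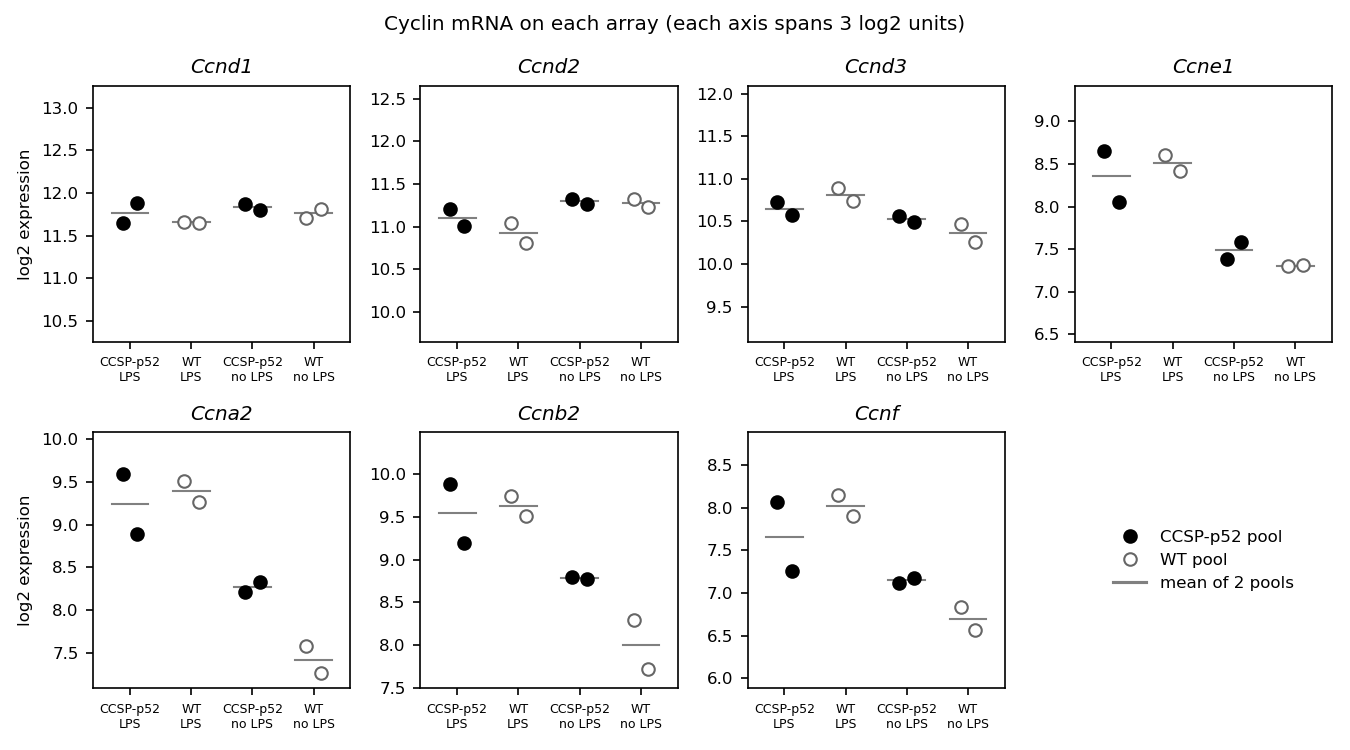
Log2 expression of the 7 measured cyclins on each array (vertical axis, spanning 3 log2 units in every panel), with filled points for CCSP-p52 pools, open points for WT pools and bars for the mean of the 2 pools. The 3 D-type cyclins range over 0.23 to 0.64 log2 units, whereas Ccne1, Ccna2, Ccnb2 and Ccnf range over 1.36 to 2.34, with the LPS pools at the top.

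The D-type cyclins couple mitogen signals to Cdk4 and Cdk6. Ccnd1 (probe set 10569646) had values of 11.65 and 11.88 in CCSP-p52 LPS pools, 11.66 and 11.65 in WT LPS pools, 11.87 and 11.80 in CCSP-p52 pools without LPS and 11.71 and 11.82 in WT pools without LPS. Both WT LPS pools lay below all 4 pools without LPS, and the CCSP-p52 LPS pools spanned the other groups. Its LPS effect over all arrays was -0.09 (SE 0.074, 95% confidence interval -0.26 to 0.08, adjusted p = 0.38) and its p52 effect without LPS was 0.08 (interval -0.18 to 0.33). A second Ccnd1 probe set is shared with another gene and was not used.

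Ccnd2 (probe set 10548105), the D-type cyclin known from lymphocytes and stem cells among others, had values of 11.20 and 11.01 in CCSP-p52 LPS pools, 11.05 and 10.80 in WT LPS pools, 11.32 and 11.27 in CCSP-p52 pools without LPS and 11.32 and 11.23 in WT pools without LPS. All 4 LPS arrays lay below the other 4. The LPS effect was -0.27 (SE 0.086, 1.21-fold lower, adjusted p = 0.042), past the adjusted threshold but smaller than the cut-off. This adjusted p rose over 0.05 with all probe sets, with median centring or with averaging of effects. In the other fits on all 8 arrays it stayed under 0.05. The LPS effect on Ccnd2 was -0.19 in CCSP-p52 lungs (adjusted p = 0.35) and -0.35 in WT lungs (adjusted p = 0.084, or 0.038 with the replicate block). Its p52 effects were 0.18 (interval -0.11 to 0.47) with LPS and 0.02 (interval -0.26 to 0.31) without.

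Ccnd3 (probe set 10445688), prominent in developing lymphocytes and red cells, had values of 10.73 and 10.57 in CCSP-p52 LPS pools, 10.90 and 10.73 in WT LPS pools, 10.56 and 10.49 in CCSP-p52 pools without LPS and 10.47 and 10.26 in WT pools without LPS. The order of the group means was WT LPS, CCSP-p52 LPS, CCSP-p52 without LPS and WT without LPS, and in CCSP-p52 lungs the lower LPS pool (10.57) was hardly above the higher pool without LPS (10.56). Over all arrays the LPS effect was 0.29 (SE 0.098, 1.22-fold, adjusted p = 0.052, or 0.032 with the replicate block). In WT lungs the LPS effect was 0.45 (SE 0.119, 1.37-fold, adjusted p = 0.037), and it fell below the cut-off when either WT pool 2 without LPS or WT LPS pool 1 was left out. In CCSP-p52 lungs the LPS effect was 0.13 (SE 0.119, adjusted p = 0.53), and the difference between the genotypes in this effect was -0.33 (interval -0.72 to 0.07, adjusted p = 0.91).

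Ccne1 (probe set 10562563), which activates Cdk2 at the start of S phase, was about doubled after LPS. It had values of 8.65 and 8.06 in CCSP-p52 LPS pools, 8.61 and 8.41 in WT LPS pools, 7.38 and 7.59 in CCSP-p52 pools without LPS and 7.30 and 7.31 in WT pools without LPS. No LPS array came near the arrays without LPS, with 8.06 the lowest of the first and 7.59 the highest of the second. The LPS effect was 1.04 over all arrays (SE 0.142, 2.05-fold, adjusted p = 0.0013), 0.87 in CCSP-p52 lungs (SE 0.196, adjusted p = 0.042) and 1.21 in WT lungs (SE 0.196, adjusted p = 0.01). By genotype Ccne1 differed less: the p52 effect was -0.16 with LPS (interval -0.62 to 0.31) and 0.18 without (interval -0.29 to 0.65).

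Ccna2 (probe set 10497831), the cyclin of S phase and G2, showed the widest range of the 7, 2.34 log2 units. Its values were 9.59 and 8.90 in CCSP-p52 LPS pools and 9.51 and 9.27 in WT LPS pools. Without LPS they were 8.22 and 8.33 in CCSP-p52 pools, against 7.57 and 7.26 in WT pools. The groups fell into 3 tiers: the LPS groups at the top, overlapping each other, then CCSP-p52 without LPS, then WT without LPS. LPS raised Ccna2 by 1.47 over all arrays (SE 0.233, 2.78-fold, adjusted p = 0.0024), by 0.97 in CCSP-p52 lungs (1.96-fold, adjusted p = 0.048) and by 1.98 in WT lungs (3.94-fold, adjusted p = 0.0055).

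Without LPS the p52 effect on Ccna2 was 0.86 (SE 0.233, interval 0.31 to 1.41, 1.82-fold, adjusted p = 1). The study had already selected Ccna2 from these arrays and reports it higher in CCSP-p52 lungs by quantitative PCR. The p52 effect on the arrays was 0.70 when WT pool 2 was left out, below its value with all arrays. That fit leaves 1 WT array without LPS, and the call at the cut-off was lost in it. With LPS the p52 effect was -0.15 (interval -0.70 to 0.41, adjusted p = 0.89), and it was 0.20 when CCSP-p52 LPS pool 2 was left out and -0.50 when pool 1 was. The difference between these p52 effects, tested as an interaction, was -1.01 (SE 0.33, interval -1.79 to -0.23, adjusted p = 0.91). Ccna2 was the 1 cyclin of 7 at the cut-off in this test, where 2.3% of probe sets were lower. None passed adjustment, where 0% of probe sets were lower, and Ccna2 alone had an unadjusted p under 0.05, as 5.04% did. The call was lost when WT pool 2 without LPS, CCSP-p52 pool 2 without LPS or WT LPS pool 1 was left out.

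Ccnb2 (probe set 10594774), a B-type cyclin that activates Cdk1 at mitosis, followed Ccna2. Its values were 9.89 and 9.20 in CCSP-p52 LPS pools and 9.75 and 9.51 in WT LPS pools. Without LPS they were 8.80 and 8.78 in CCSP-p52 pools, against 8.29 and 7.72 in WT pools, so that the WT pools differed from each other by 0.58 and the CCSP-p52 pools by 0.02. The LPS effect was 1.19 over all arrays (SE 0.23, 2.28-fold, adjusted p = 0.0055), 0.76 in CCSP-p52 lungs (SE 0.264, at the cut-off, adjusted p = 0.12, or 0.039 with the replicate block) and 1.63 in WT lungs (SE 0.264, adjusted p = 0.01). In CCSP-p52 lungs the call was lost with array weights (0.76, SE 0.325) and when CCSP-p52 LPS pool 1 (0.41), CCSP-p52 pool 1 without LPS (0.76) or CCSP-p52 pool 2 without LPS (0.75) was left out.

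The p52 effect on Ccnb2 without LPS was 0.78 (SE 0.264, interval 0.16 to 1.41, 1.72-fold, adjusted p = 1). It was 0.49 when WT pool 2 was left out, 0.77 when CCSP-p52 pool 1 was and 0.79 when CCSP-p52 pool 2 was, all above 0.41, but the unadjusted p was over 0.05 in these 3 fits. With LPS it was -0.09 (interval -0.71 to 0.54). The interaction was -0.87 (SE 0.373, interval -1.76 to 0.02, adjusted p = 0.91), short of the cut-off, and it reached the cut-off with the replicate number as a block (SE 0.245, adjusted p = 0.73).

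Ccnf (probe set 10448506), the F-box protein among the cyclins, had values of 8.06 and 7.26 in CCSP-p52 LPS pools, 8.14 and 7.90 in WT LPS pools, 7.12 and 7.18 in CCSP-p52 pools without LPS and 6.83 and 6.56 in WT pools without LPS. CCSP-p52 LPS pool 2 stood just above the CCSP-p52 pools without LPS, and the other 3 LPS pools stood at 7.90 or higher. The LPS effect was 0.92 over all arrays (SE 0.218, 1.89-fold, adjusted p = 0.013) and 1.33 in WT lungs (SE 0.252, 2.51-fold, adjusted p = 0.016). In CCSP-p52 lungs it was 0.51 (SE 0.252, adjusted p = 0.23), 0.92 when pool 2 was left out and 0.11 when pool 1 was, and with the replicate block it met the cut-off (SE 0.197, adjusted p = 0.13). The p52 effect was -0.36 with LPS (interval -0.96 to 0.24) and 0.45 without (interval -0.15 to 1.05), and fitted on the 4 arrays without LPS alone the second of these was at the cut-off (SE 0.111, adjusted p = 0.71). Their difference was -0.81 (interval -1.66 to 0.03, adjusted p = 0.91), and it was at the cut-off with the replicate block (SE 0.279, adjusted p = 0.73).

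**Figure D2:**
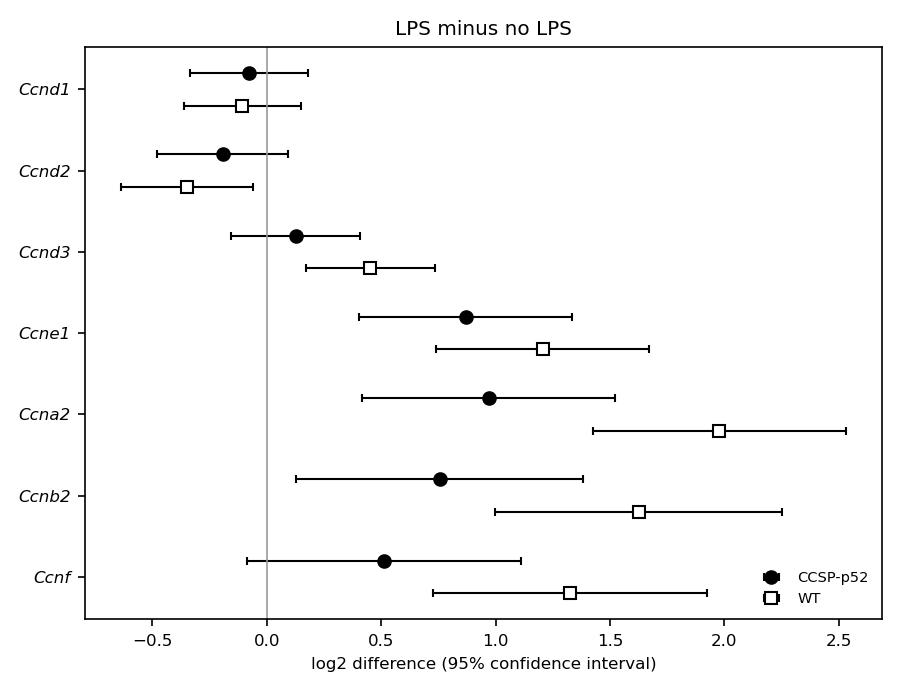
LPS effect on each cyclin in CCSP-p52 lungs (filled circles) and WT lungs (open squares) as a log2 difference from the limma fit, with 95% confidence intervals. The intervals of Ccne1, Ccna2 and Ccnb2 lie above 0 in both genotypes and those of Ccnd3 and Ccnf in WT alone. The Ccnd2 interval lies below 0 in WT (-0.635 to -0.06). Estimates for Ccne1, Ccna2, Ccnb2 and Ccnf are 0.51 to 0.97 in CCSP-p52 lungs and 1.21 to 1.98 in WT lungs. Those for Ccnd3 are 0.13 and 0.45.

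Counted by genotype, 3 of 7 cyclins (Ccne1, Ccna2 and Ccnb2) were higher after LPS at the cut-off in CCSP-p52 lungs, where 8.82% of probe sets were, and none lower, where 10.3% were. Of these, 2, Ccne1 and Ccna2, were higher at an adjusted p under 0.05, where 4.31% were. In WT lungs 5 of 7 were at the cut-off, where 10.4% of probe sets were, none was lower, where 15.8% were, and the same 5 at an adjusted p under 0.05, where 7.98% were. These comparisons share their LPS and no-LPS arrays with the p52 comparisons, and the test of whether the LPS effect differs between genotypes is the interaction already given, in which no cyclin passed adjustment.

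**Figure D3:**
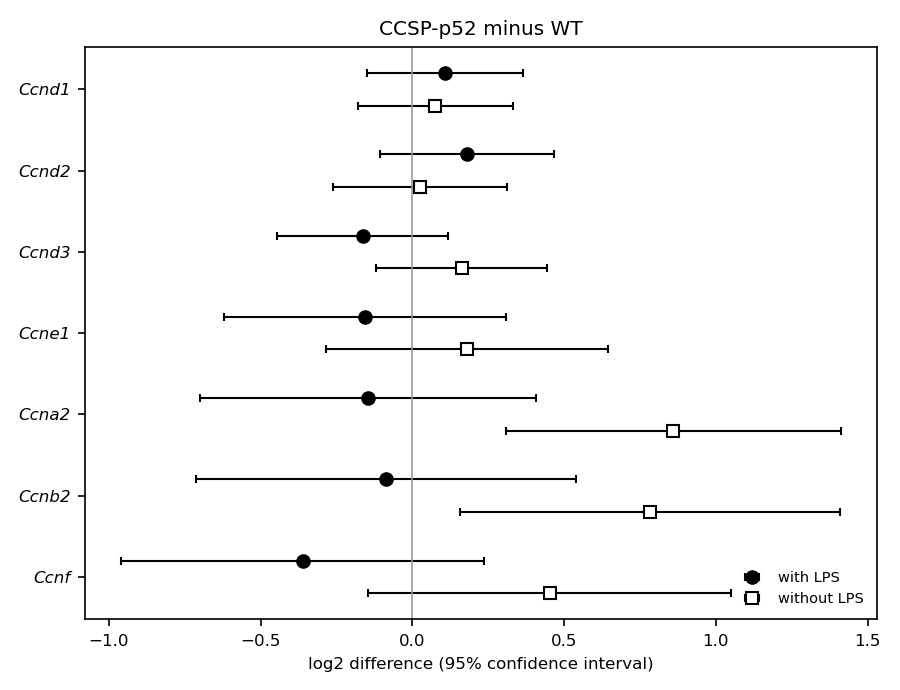
Difference between CCSP-p52 and WT lungs for each cyclin with LPS (filled circles) and without LPS (open squares), as a log2 difference from the limma fit with 95% confidence intervals. Without LPS the intervals of Ccna2 (0.31 to 1.41) and Ccnb2 (0.16 to 1.41) lie above 0, and every interval with LPS includes 0.

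The 2 pools of CCSP-p52 LPS mice were unlike for the cyclins beyond G1. Pool 2 was below pool 1 by 0.81 for Ccnf, 0.70 for Ccna2, 0.69 for Ccnb2 and 0.60 for Ccne1, whereas the WT LPS pools differed by 0.20 to 0.25 for these genes. The same pool 2 had a level of 0.36 for 6 recruited monocyte markers, against 0.83 to 1.00 for the other 3 LPS pools, as the mean of log2 values centred on each gene's own mean. Over 8 endothelial markers it had 0.04, against -0.77 to -0.41 for the other 3 LPS pools. Over 6 alveolar type I markers it had 0.02, against -0.68 to -0.37 for those pools. Nfkb2 was at 10.53 in pool 2, against 11.28 in pool 1 and 10.83 and 10.56 in WT LPS pools. What these levels contributed to the cyclin values was not tested. Without CCSP-p52 LPS pool 2 the p52 effects over all arrays were 0.60 for Ccna2 and 0.57 for Ccnb2, against 0.36 and 0.35 with all 8 arrays. Without CCSP-p52 LPS pool 1, the p52 effects with LPS were -0.77 for Ccnf, -0.50 for Ccna2 and -0.46 for Ccne1. With all 8 arrays they were -0.36, -0.15 and -0.16. Each of these fits leaves 1 CCSP-p52 LPS array, and no share over all probe sets was counted for it.

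Markers of recruited leukocytes moved with LPS, and the counts at the cut-off stand beside 9.74% of all probe sets higher and 13.7% lower. All 9 measured of 10 neutrophil markers were higher at the cut-off, and their level was 1.33 to 1.74 in CCSP-p52 LPS pools and 1.42 to 1.71 in WT LPS pools, against -1.67 to -1.62 in CCSP-p52 pools without LPS and -1.73 to -1.19 in WT pools without LPS. Of the monocyte markers, 4 of the 6 measured were higher. All 8 endothelial markers were lower. Lower too were 5 of 6 alveolar type I and 4 of 6 club cell markers. So were 3 of 8 alveolar type II and 3 of 7 B cell markers, and 0 markers of these lists were higher. In lungs without LPS, Ccna2 and Ccnb2 were higher with p52, and 0.556% of probe sets were higher and 0.16% lower at the cut-off. At it were 0 of 9 neutrophil, 0 of 6 monocyte, 0 of 8 T and NK cell and 0 of 6 club cell markers. Of 7 B cell markers 2, Pax5 (-0.47) and Blk (-0.43), were lower. B cell markers were at -0.29 to 0.24 in CCSP-p52 pools, against 0.16 to 0.79 in WT pools, and club cell markers at 0.20 to 0.33 in CCSP-p52 pools, against 0.49 to 0.68 in WT pools. Most of the club cell gap came from Scgb3a1 (11.81 and 10.81 in CCSP-p52 pools, against 12.48 and 12.71 in WT pools), and the median logFC of the 6 markers was -0.09. The part of these cells in the cyclin differences was not tested.

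To see which transcripts behaved most like each cyclin, log2 values were centred on each gene's own mean, and genes were ordered by the root mean square difference from the cyclin over the 8 arrays. This was done for the 4 cyclins with a range of at least 1. The nearest genes to Ccna2 were Top2a (0.085), the topoisomerase of dividing cells, the proliferation antigen gene Mki67 (0.111) and Cdk1 (0.125), the partner kinase of cyclin A2 and the B-type cyclins. Ccnb2 was nearest to Kif11 (0.108), a motor of the mitotic spindle, Cenpm (0.131), a centromere protein, and E2f8 (0.131), a repressor of the E2F family. Ccnf was nearest to Hmmr (0.1), a spindle protein and hyaluronan receptor, Cep55 (0.107), which acts in abscission, and Cenpn (0.11), another centromere protein. All 9 are genes of dividing cells.

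Ccne1 had other nearest genes. They were Efhd2 (0.048), a calcium-binding actin regulator of leukocytes among other cells, Map3k8 (0.055), the kinase Tpl2 downstream of Toll-like receptors, and Nuak2 (0.058), a kinase of the AMPK family. To the 9 genes named for the other cyclins its distance ran from 0.148 (Cenpn) to 0.371 (Top2a), and Ccnf was at 0.36 from Top2a, 0.308 from Mki67 and 0.316 from Cdk1, where Ccne1 was at 0.371, 0.361 and 0.29. Efhd2, Map3k8 and Nuak2 had LPS effects of 1.01, 1.03 and 1.03, close to the 1.04 of Ccne1, and p52 effects without LPS of 0.15, 0.20 and 0.13, close to its 0.18. Among the cyclins themselves Ccna2 and Ccnb2 were 0.163 apart and Ccne1 and Ccnf 0.164, while Ccne1 and Ccna2 were 0.336 apart. These distances describe the same 8 arrays that gave the effects and were not tested. Genes picked for a small distance have similar effects by that choice.

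**Figure D4:**
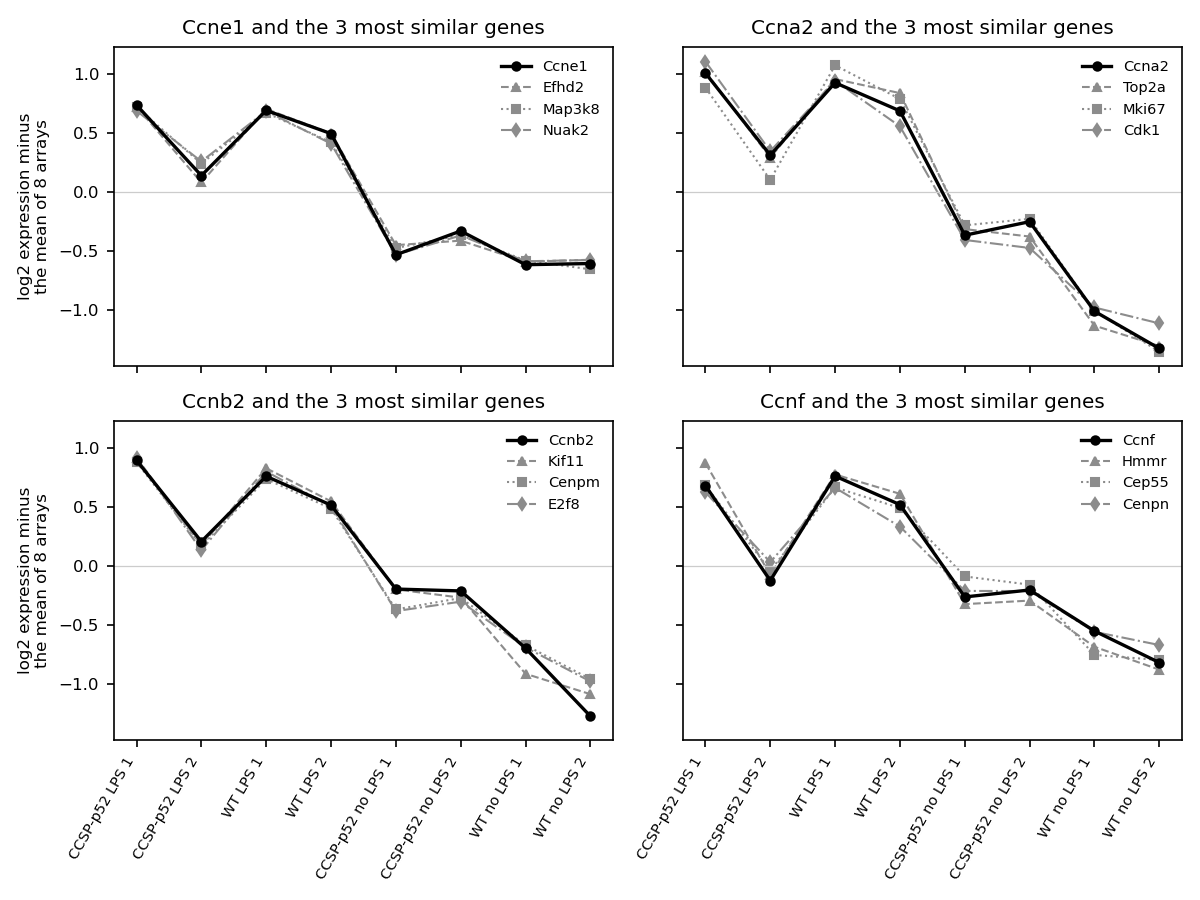
Log2 expression of 4 cyclins (black) and of the 3 genes nearest to each (gray), minus each gene's own mean over the 8 arrays, shown for each array along the horizontal axis. Lines join the values of a gene and stand for no order among arrays, and the step between CCSP-p52 and WT pools without LPS is seen for Ccna2 (0.86) and Ccnb2 (0.78) and is smaller for Ccne1 (0.18).

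The partners of the cyclins were taken from lists of pathway genes, whose counts stand beside 9.74% of all probe sets higher and 13.7% lower after LPS, and 0.556% higher with p52 without LPS. At an adjusted p under 0.05, 13.5% of probe sets were higher and 20.2% lower after LPS. Among the 9 Cdks, Cdk-activating kinase subunits and Cks proteins, 3 were higher after LPS at the cut-off and at an adjusted p under 0.05. These were Cdk1 (logFC 1.48, SE 0.196, adjusted p = 0.0011), Cks2 (1.29) and Cks1b (1.00), the small subunits that help Cdks bind substrates. Cdk2 had a logFC of -0.007 (interval -0.19 to 0.18) and Cdk4 one of 0.001 (interval -0.14 to 0.14). Cdk6 was lower by an amount under the cut-off (-0.24, adjusted p = 0.041). In this list 2 genes were lower at an adjusted p under 0.05, Cdk6 among them, and 0 at the cut-off. Without LPS the p52 effect was 0.61 for Cdk1 (interval 0.02 to 1.19), the 1 gene of 9 at the cut-off, and 0.03, 0.02 and 0.08 for Cdk2, Cdk4 and Cdk6.

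Of 8 Cdk inhibitors, 2 were higher and 2 lower after LPS at the cut-off. Cdkn1a, the p21 inhibitor, was higher by 1.48 (SE 0.1, adjusted p = 1e-04) and Cdkn3, a phosphatase of dividing cells that acts on Cdks, by 0.70 (SE 0.18, adjusted p = 0.019). Cdkn1c, which encodes p57, had a logFC of -0.70 (adjusted p = 0.0021) and Cdkn2c, which encodes p18, one of -0.73 (adjusted p = 0.0036). Without LPS Cdkn1a was the 1 inhibitor at the cut-off for p52 (0.43, interval 0.09 to 0.77). Of 6 measured of 7 phosphatases, kinases and other regulators of Cdk1, Plk1 (1.40) and Cdc25c (0.46) were higher after LPS and Cdc25b (-0.48) was lower, and Wee1, which restrains Cdk1, was the 1 at the cut-off for p52 without LPS (0.47, interval 0.07 to 0.86).

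Genes for the degradation of cyclins were also listed. Of 15 measured of 16 ubiquitin ligase genes, 2 were higher after LPS at the cut-off, close to the share over all probe sets, Fbxo5 (0.54, adjusted p = 0.0029), an inhibitor of the anaphase-promoting complex, and Cdc20 (0.43, adjusted p = 0.061), its mitotic activator. Cdc20 was also the 1 at the cut-off for p52 without LPS (0.57, SE 0.168). Of 8 measured of 9 reported substrates of cyclin F, 3 were higher after LPS at the cut-off, Rrm2 (1.39), Exo1 (0.54) and Cdc6 (0.44). At the cut-off 0 were lower, and at an adjusted p under 0.05, 4 were higher and 2 lower. With p52 without LPS 2 were higher at the cut-off, Rrm2 (0.57, SE 0.218) and Exo1 (0.50, SE 0.14). All substrates of this list are regulated by cyclin F as proteins, which the arrays do not measure.

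Among 21 measured of 22 transcription factors and cofactors of cyclin genes, 3 were higher and 2 lower after LPS at the cut-off, close to the shares over all probe sets, with E2f8 at 1.18, Rbl1, a pocket protein, at 0.55, Lin9, a MuvB subunit, at 0.52, Tfdp2, a partner of E2F, at -0.66 and Lin52, another MuvB subunit, at -0.47. None was at the cut-off for p52 without LPS, and E2f7, the lowest in p, had a logFC of 0.37 (interval 0.11 to 0.63). Of 18 measured of 20 other genes with a cyclin fold, most of them acting outside the cell cycle, none was at the cut-off for LPS or for p52 without LPS, and Ccng2 (-0.36), Ccnj (-0.33) and Ccnt2 (-0.32) were lower after LPS at an adjusted p under 0.05. With LPS 0 genes of the first 6 of these lists and 1 of the other cyclin fold genes, Ccnjl (0.42), were at the cut-off for p52. Over all probe sets 1.09% were higher and 1.09% lower in that comparison.

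Of 10 proliferation markers, 9 were higher after LPS at the cut-off, where 9.74% of probe sets were. All 10 were higher at an adjusted p under 0.05, where 13.5% of probe sets were, and the median logFC was 1.03. Their level was 0.11 to 0.71 in CCSP-p52 LPS pools and 0.44 to 0.74 in WT LPS pools, -0.27 to -0.25 in CCSP-p52 pools without LPS and -0.81 to -0.67 in WT pools without LPS, the same 3 tiers as for Ccna2. Rrm2 is also among the substrates of cyclin F. For p52 without LPS 5 of 10 were higher at the cut-off (Mki67 0.93, Top2a 0.87, Aurkb 0.57, Rrm2 0.57 and Mcm2 0.47), where 0.556% of probe sets were. None passed adjustment in limma, where 0% of probe sets were higher, and the median was 0.44. With LPS none was at the cut-off for p52, where 1.09% of probe sets were higher and 1.09% lower.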

How the data were processed

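RNA of whole lungs was hybridized to Affymetrix Mouse Gene 1.0 ST arrays, 2 for each of 4 groups. The authors made the deposited log2 values with the Robust Multichip Average (RMA), which corrects background, normalizes all arrays to a common distribution and summarizes the probes of a probe set. The submitters' processing notes name limma 3.20.8. The scanner files were not used here. Probe sets were named by the platform's table, which may be of another version of the Mouse Gene ST array than the one named. Of 35556 probe sets, 21218 (59.7%) have 1 symbol and were tested, 1881 have several and 12457 none. Array medians ran from 7.48 to 7.54, and with 8 arrays their number limits the precision.

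Linear models with empirical Bayes moderation were fitted in limma 3.58.1 under R 4.3.3. An additive model of p52 and LPS gave effects over all arrays. The study's methods name a linear model with both factors on 8 arrays and do not say that it was additive. The logFC that the study lists for Nfkb2, 0.72, equals the p52 effect without LPS here, whereas the effect over all arrays was 0.47. A 4-group model on the same 8 arrays gave the effects within a genotype or LPS state and the interaction. The cut-off was a logFC of at least 0.41 in size, as in the study, with an unadjusted p of at most 0.05, a bound chosen here, and Benjamini-Hochberg adjusted p under 0.05 over 21218 probe sets was counted apart. The members and lists were chosen with earlier results of these data known. Genes named are the members, the 3 nearest genes of each member with a range of at least 1, Cdk1, Cdk2, Cdk4 and Cdk6, and up to 3 genes of each list with the lowest p. The level of a marker list is the mean of its genes' log2 values, each centred on its mean over 8 arrays. Other genes of the lists, named to spell out a small count, were picked with their values in view. The steps were tested on simulated data. Pools that share a replicate number deviated together from the means of their groups (correlations of 0.14 to 0.35 in 6 pairs of groups). The main fits left this pairing out, and on these values alone the replicate block was fitted as an alternative. Promoter windows are RefSeq's (GRCm38.p6), a build not named for the arrays. Alternatives were all probe sets, a filter on dim probe sets, renewed quantile normalization or median centring, the replicate block, array weights, another prior, the mean of a gene's probe sets, each LPS state alone, averaging of effects, stricter thresholds, and arrays left out.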

Additional observations from a re-analysis of the deposited data

Results flagged for a closer look

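The p52 effect on Ccna2 with LPS minus that without LPS was -1.01 (SE 0.33, adjusted p = 0.91), a difference between the LPS states past the unadjusted threshold. The group means were 9.25 in CCSP-p52 LPS and 9.39 in WT LPS pools, and 8.28 in CCSP-p52 and 7.42 in WT pools without LPS. Leaving out single arrays gave -1.36 to -0.66.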

How the results depend on the processing

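The LPS effect over all arrays kept its direction and its call for Ccna2 (1.31 to 1.71), Ccnb2 (0.99 to 1.42), Ccne1 (0.95 to 1.24) and Ccnf (0.79 to 1.18) under each alternative that gave a value. Ccnf did not pass the filter on dim probe sets and has no value there. Of 462 values of single cyclins under other settings, 437 stayed on the same side of the cut-off with the same sign, and of 392 values with 1 array left out, 344 did. These counts include values whose logFC could not change. It was fixed with all probe sets, the dim filter, the replicate block, another prior and the mean of a gene's probe sets. The same holds for averaging of effects, each LPS state alone, and group comparisons that do not use the array left out. Agreement in sign says nothing there.

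Counts of cyclins at the cut-off changed as follows. Shares over all probe sets were counted for the main fits alone, so the shares given earlier do not apply to counts from other fits. For p52 over all arrays, 2 were higher with array weights and 2 without both second LPS pools, against 0, and 0 to 2 with 1 array left out. For p52 without LPS, 0 were higher at a logFC of at least 1 or at adjusted p under 0.05, and 0 to 3 with 1 array left out. It was 3 with array weights, with the 4 arrays alone or without both second LPS pools. For p52 with LPS, 0 to 3 were lower with 1 array left out. For LPS over all arrays, 3 were higher, against 4, at a logFC of at least 1 (Ccnf was not) or among probe sets above the median, and 1 was lower at adjusted p under 0.05. For LPS in CCSP-p52 lungs, against 3, 0 were higher at a logFC of at least 1, 2 with array weights or at adjusted p under 0.05, 4 without both second LPS pools or with the block, and 2 to 4 with 1 array left out. For LPS in WT lungs, against 5, 4 were higher at a logFC of at least 1 or among probe sets above the median and 4 to 5 with 1 array left out, and 0 to 1 were lower. For the interaction, 0 were lower at adjusted p under 0.05, 2 with renewed quantile normalization, 2 with median centring, 2 with array weights, 2 without both second LPS pools, and 0 to 4 with 1 array left out. With the replicate number as a block, 3 cyclins were lower in the interaction, against 1, and Ccnf was also higher after LPS in CCSP-p52 lungs. At adjusted p under 0.05 it added Ccnd3 (LPS over all arrays), Ccnd2 (LPS in WT lungs) and Ccnb2 (LPS in CCSP-p52 lungs). The block changed no other call. The cause of these changes was not tested.

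Signs turned for small effects. The p52 effect over all arrays became -0.013 for Ccne1 with renewed normalization, and 0.12 with array weights and 0.054 without both second LPS pools for Ccnd3. Without those pools the p52 effect with LPS became -0.01 for Ccnd1, 0.046 for Ccne1, 0.082 for Ccna2 and 0.135 for Ccnb2, and the interaction for Ccnd1 became -0.086, or -0.021 with median centring. With 1 array left out, the p52 effect over all arrays ran from -0.075 to 0.064 (Ccnd3), -0.074 to 0.166 (Ccne1) and -0.09 to 0.288 (Ccnf), without LPS from -0.023 to 0.071 (Ccnd2), and with LPS from -0.43 to 0.26 (Ccnb2), -0.008 to 0.221 (Ccnd1), -0.46 to 0.14 (Ccne1), -0.50 to 0.20 (Ccna2) and -0.765 to 0.041 (Ccnf). For Ccnd1 the LPS effect in CCSP-p52 lungs ran from -0.191 to 0.038 and the interaction from -0.083 to 0.145.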
